A study of Mus musculus with 6 samples.

Results

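Splicing factors and RNA-binding proteins were chosen by name. Of the 6788 genes that the array's annotation names, 83 are the members described here. Their symbols start with Hnrnp, Hnrp, Srsf, Sfrs, Sf3, Snrp, Prpf or U2af, with Lsm and a digit, or with Rbm and a digit or x. The members comprise 17 hnRNP genes, 8 SR protein genes, 8 genes of splicing factor 3, 1 gene of the U2AF group (U2af1l4), 9 genes of small nuclear ribonucleoprotein (snRNP) proteins, 6 Lsm genes, 8 Prpf genes and 26 genes of RNA-binding motif (Rbm) proteins. The prefix is a name and not a function: Rbm19 acts in ribosome biogenesis, and Lsm14a and Lsm14b act on cytoplasmic mRNA.

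Introns are removed from pre-mRNA by the spliceosome, which is built from snRNPs. Each spliceosomal snRNP holds a small nuclear RNA inside a ring of Sm or Lsm proteins, and splicing factor 3 and U2AF help the U2 snRNP to settle on the branch site near the 3′ end of the intron. SR proteins commonly promote the inclusion of exons by binding enhancers, hnRNPs often oppose this, and Prpf proteins work mainly in the later snRNPs and in the active spliceosome. Neurons make wide use of alternative splicing, and many of its regulators belong to these families.

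Neuro-2a cells are a mouse neuroblastoma line. They were transfected either with 59Q, a human TBP with a repeat length of 59 fused to GFP, or with N3, the pEGFP-N3 vector that yields GFP alone, and total RNA was taken 60 h later. TBP is the TATA-binding protein of the general transcription machinery. The transfection was transient, and the paper reports an efficiency at which only part of the cells were transfected. Each RNA thus mixes transfected cells with untransfected ones, and in such a bulk sample fewer expressing cells and less RNA per cell cannot be told apart. RNA of 59Q and N3 transfected cells was hybridized together on each of 6 two-colour cDNA arrays. The RNA of 59Q transfected cells carried Cy5 on replicates 1, 3, 4 and 6 and Cy3 on replicates 2 and 5.

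The authors deposited 1 Z-ratio per spot, a score with an SD of 1 over the spots of each array, so a value of 1 is 1 SD of that array's spots and is no fold change. A Z-ratio carries no level, and the identity of the cells could not be checked from it. The sources used here do not say which way it runs on the arrays with swapped dyes. Both readings are therefore given. As deposited, a value above 0 on any array is read as more RNA in 59Q transfected cells, and in the Cy5 over Cy3 reading the sign of replicates 2 and 5 is turned first. Duplicate spots of a clone were averaged, and then the clones of a gene, which left 132 clones (264 spots) for the 83 members, between 1 and 4 clones for each. Spots with a value numbered 19966 to 31181 of 31200 per array, and 70 members were measured on all 6 arrays, 11 on 5, Prpf3 on 4 and Rbmx on 3. Of these, the 82 with values on 4 or more arrays entered the limma fit, with p-values adjusted over all 6463 such genes. Tbp, the gene of the transfected factor, read 2.92, -0.0977, 0.176 and 1.04 with 59Q in Cy5 and 2.31 and 1.74 with 59Q in Cy3. Its mean as deposited was 1.35 ± 1.19 (SD, n = 6; limma unadjusted p = 0.0052, adjusted p = 0.999). Once the sign of replicates 2 and 5 was turned, its mean was -0.0015 (limma unadjusted p = 0.998). Tbp thus lay above 0 on both arrays with 59Q in Cy3 as deposited, and turning puts it below 0 on both. Whether these values fix the direction of the deposited Z-ratio was not tested.

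Because the transfected protein binds the TATA box, the sequence before each member's start site was examined. RefSeq promoters of build GRCm38.p6, each running from 250 bases before to 50 bases after a start, matched 73 of the 83 members and gave 92 promoters. The motif TATAAA lay on the gene's strand between 40 and 15 bases before the start in 1 of the 92 (1.09%), that of Srsf2, against 1.99% of all 32851 promoters. Searched anywhere in the window on both strands, it was in 10 member promoters (10.9%) and in 13.6% of all promoters. The GC box GGGCGG, a motif chosen after the data were seen and searched on both strands, was in 55.4% of member promoters and 35.7% of all promoters, and the median GC content was 60% against 52.7%. The set of all promoters covers 27025 genes, beyond the 6788 that the array names. Whether members differ from the other genes of the array in these motifs was not tested. The promoters of the 3 members that had a clone past the test in the Cy5 over Cy3 reading are shown with TATAAA in capitals where it lies in that stretch. They come from chr11:116853045-116853344 (minus strand), chr10:80798485-80798784 (plus strand) and chr2:156180189-156180488 (minus strand, 1 of 2 starts listed for Rbm39).
Srsf2: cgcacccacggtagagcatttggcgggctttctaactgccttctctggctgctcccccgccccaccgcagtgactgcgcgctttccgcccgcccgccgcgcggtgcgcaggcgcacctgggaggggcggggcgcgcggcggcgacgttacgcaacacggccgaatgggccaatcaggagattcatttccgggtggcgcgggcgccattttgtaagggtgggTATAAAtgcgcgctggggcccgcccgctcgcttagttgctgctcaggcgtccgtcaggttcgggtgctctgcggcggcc
Sf3a2: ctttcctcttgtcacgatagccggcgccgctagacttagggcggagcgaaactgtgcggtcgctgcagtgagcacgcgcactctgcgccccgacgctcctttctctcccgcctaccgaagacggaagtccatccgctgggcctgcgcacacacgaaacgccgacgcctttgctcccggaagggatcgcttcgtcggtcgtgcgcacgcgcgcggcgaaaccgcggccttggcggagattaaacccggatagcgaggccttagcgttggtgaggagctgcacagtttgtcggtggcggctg
Rbm39: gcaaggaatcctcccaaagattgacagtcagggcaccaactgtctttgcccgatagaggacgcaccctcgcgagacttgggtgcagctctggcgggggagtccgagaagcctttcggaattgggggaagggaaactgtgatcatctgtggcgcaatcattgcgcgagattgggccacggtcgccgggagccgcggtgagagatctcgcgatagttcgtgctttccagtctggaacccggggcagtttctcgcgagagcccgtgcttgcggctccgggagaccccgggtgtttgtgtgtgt
The Srsf2 motif starts 29 bases before the start site. The Sf3a2 and Rbm39 windows hold no such match in that stretch, which says only that these letters are not there.

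As deposited, no member passed the test. Of 82 members, 0 had an adjusted p under 0.05, as had 0% of all 6463 genes, and the smallest adjusted p of a member was 0.999. The mean was above 0 for 35 members and below 0 for 47, but this split turned to 47 above and 35 below without replicate 1, to 44 and 39 without replicate 3, to 45 and 38 without replicate 4 and to 47 and 35 with a dye term. Their median was -0.0124, beside -0.0449 over all genes, and the median of the members varied between arrays with an SD of 0.251. Before adjustment 3 members had p under 0.05, Rbm15, Rbm38 and Snrpg, a share of 3.66% beside 2.61% of all genes. This count was 9 without replicate 2, where that over all 6463 genes rose as well, from 169 to 442. It was 2 without replicate 5 (253 of 6517 genes) and 1 without replicate 4 or 6 (93 of 6710 and 138 of 6690 genes). In the heat map of single values the colours of a member often change at the line between the dye orientations.

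**Figure D1:**
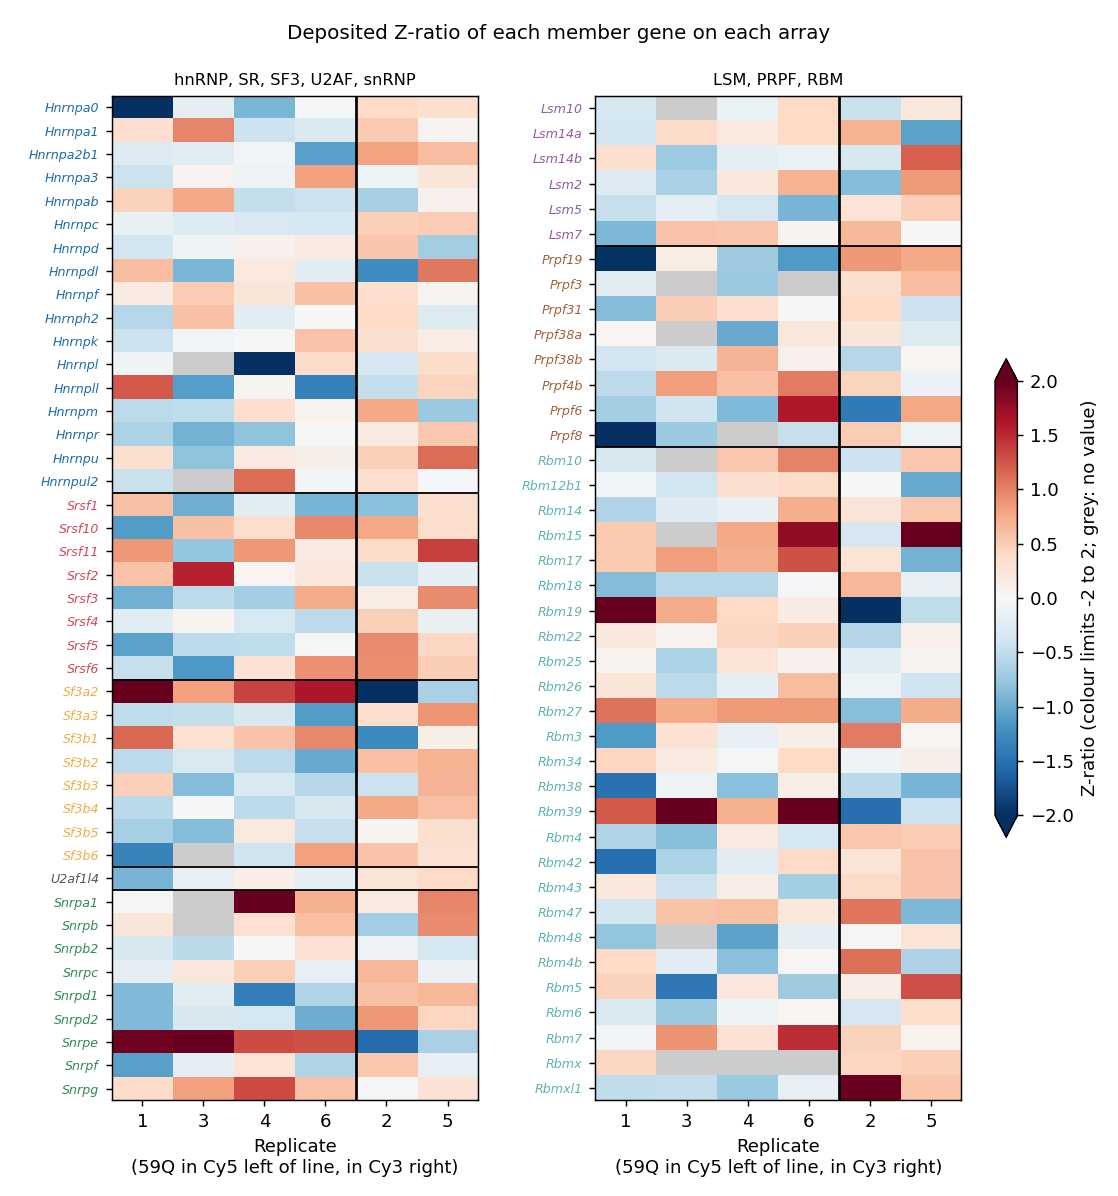
Deposited Z-ratio (colour, limits -2 to 2) of each of the 83 member genes (vertical axis, ordered by family) on each of the 6 arrays (horizontal axis, 59Q in Cy5 left of the line and in Cy3 right of it); grey marks no value. Only Hnrnpf has the same sign on all 6 arrays among the 70 members measured on all of them.

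Rbm15, a protein that guides RNA methylation, read 0.516, 0.773 and 1.78 on replicates 1, 4 and 6 and -0.333 and 2.2 on replicates 2 and 5, with no value on replicate 3. Its mean was 0.986 ± 1.01 (SD, n = 5; limma unadjusted p = 0.0239, exact 2-sided sign-flip p = 0.125). With 5 arrays the sign-flip test over arrays cannot go below 0.0625, and with 6 not below 0.03125. This test takes the arrays as independent, although the series text counts 4 biological replicates. With fewer independent units these limits would be higher, so the exact p-values given here may be too small. Rbm38, which binds mRNAs of the cell cycle, read -1.5, -0.105, -0.836 and 0.118 with 59Q in Cy5 and -0.534 and -0.924 in Cy3, with a mean of -0.63 ± 0.587 (SD, n = 6; exact p = 0.0938). Snrpg, a protein of the Sm ring, read 0.36, 0.818, 1.31 and 0.567 with 59Q in Cy5 and -0.037 and 0.288 in Cy3, with a mean of 0.55 ± 0.467 (SD, n = 6; exact p = 0.0625). For each of these members 1 array had the opposite sign from the others, and none passed after adjustment (limma adjusted p = 0.999).

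Few members kept 1 sign on all arrays as deposited. Hnrnpf, which binds G-rich runs near exons, was the only one of the 70 members on 6 arrays to do so, 1.43% beside 1.58% of all genes on 6 arrays. It read 0.17, 0.514, 0.244 and 0.579 with 59Q in Cy5 and 0.329 and 0.0576 in Cy3. The mean was 0.315 ± 0.201 (SD, n = 6, adjusted p = 0.999 by limma). Its exact sign-flip p was 0.03125, the smallest 6 arrays allow. That value follows from the shared sign for which the gene is shown here, so it adds no support. Past the Z-ratio threshold that the methods used, 1.96, lay 1 member mean as deposited, beside 0.263% of all genes. It was that of Snrpa1, a protein of the U2 snRNP, at 2.11 ± 3.72 (SD, n = 5), and it rested on replicate 4: the array values were -0.0345, 8.72 and 0.709 on replicates 1, 4 and 6 and 0.174 and 0.97 on replicates 2 and 5. The 8.72 came from a single spot whose duplicate has no value, and without replicate 4 no member mean was past the threshold.

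No family's median lay beyond its spread over the arrays as deposited. The medians ran from -0.113 for Prpf to 0.149 for snRNP genes, and each was closer to 0 than the SD of that family's median over the arrays, which ran from 0.161 to 0.412 in the families of over 1 gene. Among Prpf genes 7 of 8 means were below 0, and 6 of 8 with quantile normalization. The share above 0 was 12.5%, beside 43.1% of all genes. The lowest mean was that of Prpf8, the central scaffold of the spliceosome, at -0.6 ± 1.01 (SD, n = 5). Of the hnRNP means 6 were above 0 and 11 below, and the SR genes split evenly at 4 and 4. Within the Sm ring 3 of 6 measured genes were above 0 and 3 below. On replicate 1 the members' median was -0.32 (all genes -0.152) and on replicate 5 it was 0.3 (all genes 0.21), so members and all genes shifted the same way between these arrays. On replicates 4 and 6 they lay on opposite sides of 0, with members' medians of 0.0323 and 0.118 (all genes -0.117 and -0.0269).

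**Figure D2:**
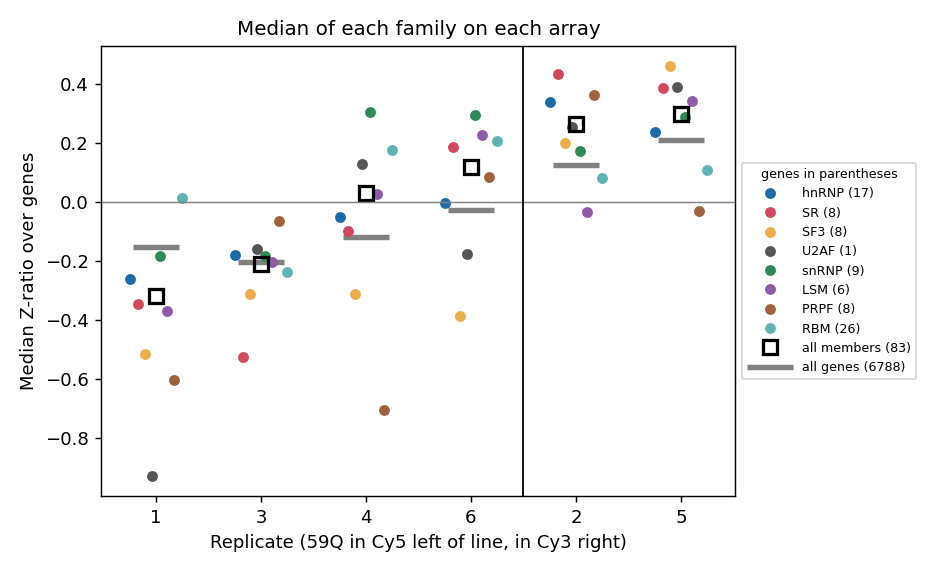
Median deposited Z-ratio over the genes of each family (points, vertical axis) on each array (horizontal axis, 59Q in Cy5 left of the line and in Cy3 right of it), with open squares for all 83 members and bars for all 6788 genes. With 59Q in Cy3 the members' medians are 0.265 and 0.3, above those on the 4 arrays with 59Q in Cy5, which run from -0.32 to 0.118.

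Many members split by dye orientation, about as often as all genes. Values with 59Q in Cy5 and in Cy3 did not overlap for 26 of the 70 members on all arrays (37.1%), beside 32.9% of all genes; the Cy5 arrays were higher for 9 and lower for 17. For 16 members (22.9%, beside 16.2% of all genes) every Cy5 array had 1 sign and both Cy3 arrays the other, which is 1 sign throughout in the Cy5 over Cy3 reading. In 5 of them, Sf3a2, Snrpe, Rbm39, Rbm19 and Srsf2, the Cy5 arrays were above 0. In the other 11 they were below 0: Sf3a3, Sf3b2, Sf3b4, Snrpd1, Snrpd2, Lsm5, Hnrnpa0, Hnrnpa2b1, Hnrnpc, Hnrnpr and Rbmxl1. The test of the difference between orientations called 0 of 82 members, as it called 0% of all genes, with 15 members at an unadjusted p under 0.05 (18.3%, beside 16.1% of all genes). Pearson's r over members, which are not independent of each other, had a median of 0.268 between arrays of the same orientation (7 pairs) and -0.245 between arrays of opposite orientation (8 pairs); over all genes the medians were 0.162 and -0.192. A dye effect and an effect in values that run Cy5 over Cy3 cannot be told apart here.

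**Figure D3:**
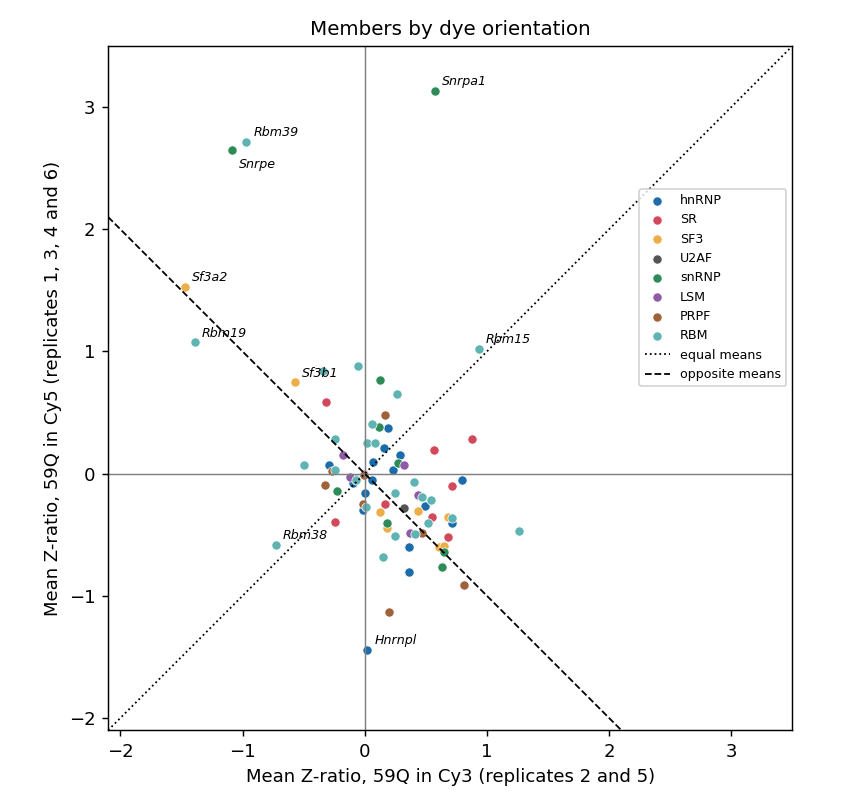
Mean Z-ratio of each of the 82 tested members with 59Q in Cy3 (horizontal axis, replicates 2 and 5) against that with 59Q in Cy5 (vertical axis, replicates 1, 3, 4 and 6), coloured by family; the dotted line marks equal means and the dashed line opposite means. Rbm39, Snrpe, Sf3a2 and Rbm19 lie top left, with Cy5 means from 1.08 to 2.71 and Cy3 means from -1.47 to -0.969.

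In the Cy5 over Cy3 reading 0 of 82 members passed the adjusted test, beside 0.279% of all genes (18 genes, 17 of them higher), and 21 members had an unadjusted p under 0.05 (25.6%, beside 19.8% of all genes), 7 higher and 14 lower. The smallest adjusted p of a member was that of Sf3a2. Sf3a2 encodes a subunit of splicing factor 3a, which joins the U2 snRNP at the branch site, and it read 2.34, 0.825, 1.35 and 1.61 with 59Q in Cy5 and -2.29 and -0.652 with 59Q in Cy3. Every Cy5 array was thus above 0 and both Cy3 arrays below. The mean in this reading was 1.51 ± 0.712 (SD, n = 6, adjusted p = 0.0647 by limma, exact p = 0.03125), and as deposited it was 0.53 ± 1.7. That exact p is the smallest 6 arrays allow and follows from these signs in a gene picked for its small p, so it adds no support. The gene missed the threshold as a gene, and passed it under 5 of the alternatives in the closing section. Its sole clone holds the same 6 values and passed in the fit over clones, where the adjustment runs over another set. The clone call is thus no further support.

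Subunits of the same particles lay on opposite sides in this reading. Sf3b1, the splicing factor 3b subunit that contacts the branch site, had a mean of 0.689 ± 0.537 (SD, n = 6), on the side of Sf3a2. Below 0 were Sf3a3 at -0.605 ± 0.321, Sf3b2 at -0.609 ± 0.232 and Sf3b4 at -0.465 ± 0.252 (SD, n = 6 each). These 4 and Sf3a2 each had an unadjusted limma p under 0.05 and an adjusted p between 0.0647 and 0.204. They are 5 of the 8 genes of splicing factor 3 (62.5%, beside 19.8% of all genes), shown here for their p. Of all 8 means 2 were above 0 and 6 below. Sf3b2 is carried by 3 clones, and its gene values were -0.525, -0.311, -0.518 and -1.01 with 59Q in Cy5 and 0.599 and 0.696 in Cy3. These values do not overlap between orientations, although no value is beyond 1.01 in size.

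The Sm ring, which binds the small nuclear RNA in most spliceosomal snRNPs, was likewise divided. Snrpe read 1.95, 6.05, 1.31 and 1.28 with 59Q in Cy5 and -1.53 and -0.646 in Cy3, and its mean in the Cy5 over Cy3 reading was 2.13 ± 1.97 (SD, n = 6, adjusted p = 0.143 by limma). Snrpd1 read -0.88, -0.234, -1.36 and -0.596 with 59Q in Cy5 and 0.587 and 0.669 in Cy3, with a mean of -0.721 ± 0.376 (limma adjusted p = 0.134). Snrpd2 had a mean of -0.641 ± 0.306 (SD, n = 6, adjusted p = 0.145 by limma). The remaining ring genes Snrpb, Snrpf and Snrpg had means of 0.179, -0.332 and 0.467. Whether Snrpe differed from Snrpd1 and Snrpd2 was not tested, as different probes give no common level.

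**Figure D4:**
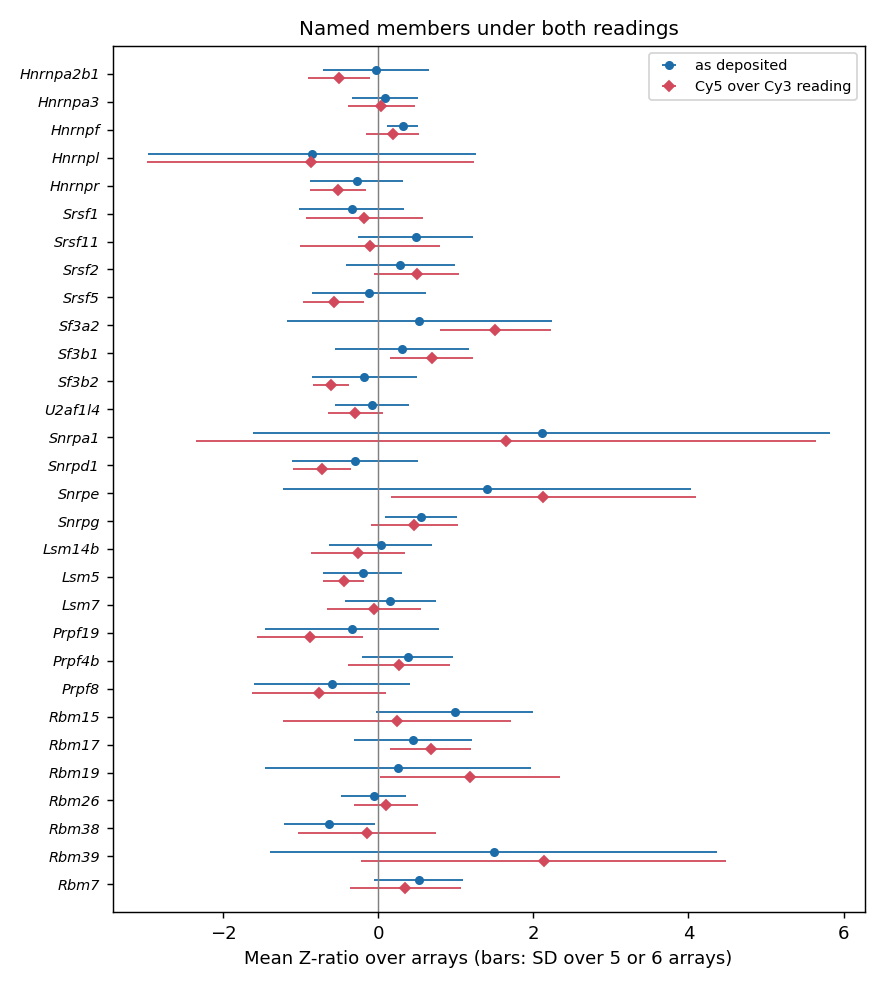
Mean Z-ratio (horizontal axis) with its SD over 5 or 6 arrays (bars) of the 30 members chosen by the rule for named genes, as deposited (circles) and in the Cy5 over Cy3 reading (diamonds). Sf3a2 moves from 0.53 to 1.51 between the readings and its SD from 1.7 to 0.712, while Rbm15 moves from 0.986 to 0.24.

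Past the threshold of 1.96 in this reading lay 2 members, Rbm39 and Snrpe, beside 0.572% of all genes. Rbm39, a splicing factor related to the large U2AF subunit, read 1.22, 6.77, 0.712 and 2.16 with 59Q in Cy5 and -1.51 and -0.429 in Cy3, with a mean of 2.13 ± 2.35 (SD, n = 6, adjusted p = 0.175 by limma). The 6.77 came from 1 of 2 Rbm39 clones, as the other has no value on replicate 3. On replicate 4 the first clone read 2.71 and the other -1.29. For both genes replicate 3 held the highest value by far, and without it their means were 1.21 and 1.34, under the threshold. Rbm19 had a mean of 1.18 ± 1.16 and Rbm17, which acts in the choice of 3′ splice sites, 0.675 ± 0.526 (SD, n = 6 each, adjusted p = 0.161 and 0.17 by limma). Rbmx had values on replicates 1, 2 and 5 only, at 0.418, 0.429 and 0.469, and was not tested.

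Among the regulators of exon choice few values were large. For SR genes 7 of 8 means were below 0 in the Cy5 over Cy3 reading, beside 4 of 8 as deposited, and the exception was Srsf2. The share above 0 was 12.5%, beside 34.6% of all genes, and 6 of 8 SR means were below 0 with arrays centred on their medians. Srsf5 was the lowest, with -1.07, -0.531, -0.504 and 0.0276 with 59Q in Cy5, 0.952 and 0.414 in Cy3, and a mean of -0.574 ± 0.396 (SD, n = 6, adjusted p = 0.18 by limma). Srsf1, the founding SR protein, had a mean of -0.344 ± 0.681 as deposited and -0.179 ± 0.753 in the other reading, each within its SD. Of 17 hnRNP genes 5 were above 0 in the Cy5 over Cy3 reading (29.4%, beside 34.6% of all genes) and 12 below, but with arrays centred on their medians 9 were above and 8 below. An unadjusted p under 0.05 was found for 3, Hnrnpa0, Hnrnpa2b1 and Hnrnpr, a share of 17.6% beside 19.8% of all genes. Hnrnpa2b1, which binds pre-mRNA and mRNAs carried in neurites, had a mean of -0.504 ± 0.396 and Hnrnpr one of -0.52 ± 0.365 (SD, n = 6 each, adjusted p = 0.212 and 0.196 by limma). Hnrnpl, a repressor of exons with CA repeats, had the lowest member mean as deposited, -0.857 ± 2.12 (SD, n = 5), from a single spot of -4.61 on replicate 4. Its other 4 values lay between -0.335 and 0.374.

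Of the proteins of the later snRNPs none passed the test in either reading. Prpf19, a ubiquitin ligase of the active spliceosome, read -1.98, 0.155, -0.704 and -1.13 with 59Q in Cy5 and 0.861 and 0.763 in Cy3, with a mean of -0.88 ± 0.69 in the Cy5 over Cy3 reading (SD, n = 6, adjusted p = 0.151 by limma). Its Cy5 values lie below its Cy3 values although replicate 3 is above 0. Prpf8 had a mean of -0.761 ± 0.862 (SD, n = 5, adjusted p = 0.239 by limma). Prpf4b, a kinase of the spliceosome, had a mean of 0.378 ± 0.59 as deposited and 0.265 ± 0.66 in the other reading. Of the Lsm genes, Lsm5, part of the ring on the U6 RNA, had a mean of -0.444 ± 0.262 in the Cy5 over Cy3 reading (SD, n = 6, adjusted p = 0.215 by limma), and Lsm2 of the same ring had 0.0012 ± 0.705. Lsm7, also of that ring, averaged 0.157 ± 0.586 as deposited, and Lsm14b averaged -0.262 ± 0.603 in the other reading (SD, n = 6 each). U2af1l4, related to the small U2AF subunit, had -0.296 ± 0.354 (SD, n = 6, adjusted p = 0.4 by limma).

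Single clones gave the only calls. As deposited 0 of 128 tested member clones had an adjusted p under 0.05, as had 0% of all 14418 clones. In the Cy5 over Cy3 reading 3 of 128 were called higher and 0 lower, beside 1.89% of all clones higher and 0.0486% lower. They were the sole Sf3a2 clone (limma adjusted p = 0.0348), 1 of 3 Srsf2 clones and 1 of 2 Rbm39 clones. The Srsf2 clone read 1.8, 2.18, 1.25 and 1.03 with 59Q in Cy5 and -1.56 and -0.329 in Cy3, with a mean of 1.36 ± 0.648 (SD, n = 6, adjusted p = 0.0396 by limma). Srsf2 is an SR protein that can bind exonic enhancers, and its other clones, at -0.0312 ± 0.522 and -0.11 ± 0.585, did not follow the dye. The Rbm39 clone read 2.15, 6.77, 2.71 and 2.17 with 59Q in Cy5 and -2.05 and -1.81 in Cy3, with a mean of 2.94 ± 1.9 (SD, n = 6, adjusted p = 0.041 by limma). Its partner clone had 0.231 ± 1.41 (SD, n = 5). All 3 calls were lost without replicate 1, 2, 4 or 6, where 0 member clones and 0 of all clones passed. Without replicate 3, 1 passed, beside 10 higher of all 15386 clones. Without replicate 5, 2 passed, beside 202 higher and 1 lower of all 14617.

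**Figure D5:**
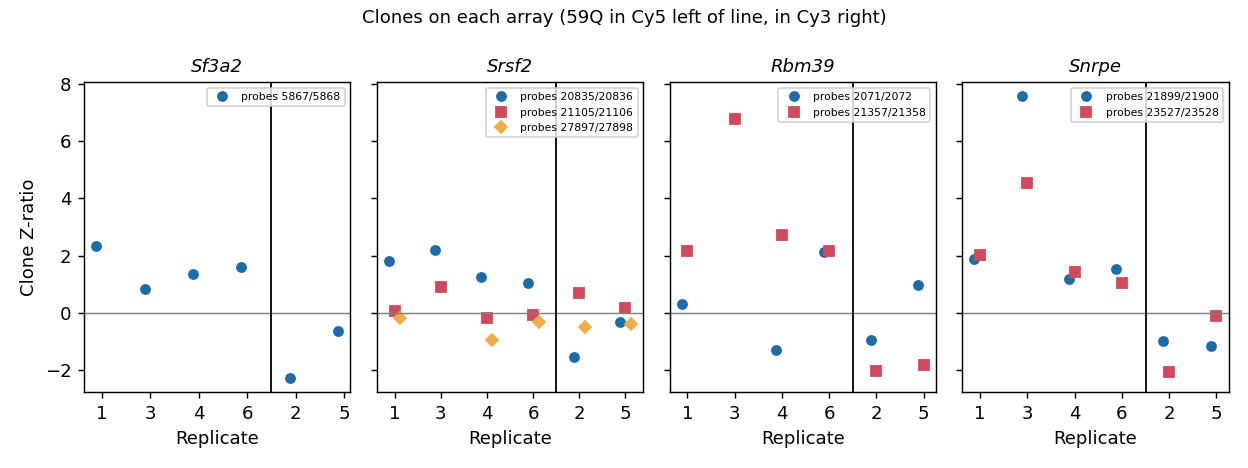
Z-ratio of each clone (points, 1 symbol per clone; vertical axis) of Sf3a2, Srsf2, Rbm39 and Snrpe on each array (horizontal axis, 59Q in Cy5 left of the line and in Cy3 right of it). The called Srsf2 and Rbm39 clones are above 0 on every Cy5 array and below 0 on both Cy3 arrays, while the remaining clones of these genes lie on both sides of 0 or below it; both Snrpe clones follow the dye.

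Clones of 1 gene often disagreed. As deposited, 16 of the 32 members with at least 2 tested clones had all clone means on the same side of 0 (50%), beside 45.5% of all such genes, and in the Cy5 over Cy3 reading 15 of 32 did (46.9% beside 52.6%). Over 52 pairs of clones of the same member the correlation across arrays had a median of 0.28 and was above 0 for 36 pairs. In Lsm14a 2 clones had means of 1.33 and 0.549 in the Cy5 over Cy3 reading and the other -1.05, which left 0.16 ± 0.628 for the gene. Both Snrpe clones lay on the same side, at 2.38 ± 2.56 and 1.87 ± 1.49. Of members with several clones, Hnrnpa3 averaged 0.0836 ± 0.425 and Rbm26 -0.0589 ± 0.423 as deposited with 4 clones each (SD, n = 6 each). With 3 clones each, Rbm7 averaged 0.522 ± 0.574 and Srsf11 0.481 ± 0.743 (SD, n = 6 each), and none of these genes passed the test.

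The wider splicing pathway was read from 5 further lists of 129 genes, 92 of them measured and 89 tested. As deposited 0 were called, and 1 had an unadjusted p under 0.05 (1.12%, beside 2.61% of all genes): Thoc7, a subunit of the mRNA export complex, which was above 0 on all 6 arrays with a mean of 0.536 ± 0.294 (SD, n = 6; exact p = 0.03125, adjusted p = 0.999 by limma). That exact p is the smallest 6 arrays allow and follows from the shared sign of a gene picked for its small p, so it adds no support. By list, means above 0 numbered 12 of 28 other spliceosome components, 12 of 25 other splicing regulators, 5 of 13 genes of snRNP assembly, 3 of 9 kinases and phosphatases of SR proteins and 6 of 14 genes of the exon junction complex and mRNA export. Their medians ran from -0.21 to -0.00241. The genes with the smallest p of each list did not pass: Ppil1 and Cdc5l, spliceosome proteins, averaged 0.558 ± 0.595 (SD, n = 6) and 0.416 ± 0.313 (SD, n = 5), and the regulators Qk and Pspc1 averaged 0.662 ± 0.73 (SD, n = 4) and -0.359 ± 0.659 (SD, n = 6). Wdr77, which helps to methylate Sm proteins, averaged -0.53 ± 0.722, and Coil, the marker of Cajal bodies where snRNPs mature, -0.446 ± 0.685 (SD, n = 6 each). The SR protein kinases Srpk2 and Clk3 averaged -0.287 ± 0.831 and -0.283 ± 0.944, and Thoc1, of the same export complex as Thoc7, -0.55 ± 0.574 (SD, n = 6 each). The smallest adjusted p in these lists was 0.999 by limma as deposited. In the Cy5 over Cy3 reading 22 of the 89 had an unadjusted p under 0.05 (24.7%, beside 19.8% of all genes). After adjustment 1 was called (1.12%, beside 0.279% of all genes), Clk4, a kinase that phosphorylates SR proteins. It read 2.08, 1.31, 1.18 and 0.773 with 59Q in Cy5 and -2.34 and -1.86 in Cy3, with a mean of 1.59 ± 0.598 (SD, n = 6, adjusted p = 0.0442 by limma), and was named for its value. The call held under 8 of 17 alternatives and was lost when any 1 of the 6 arrays was left out, with adjusted p from 0.0625 to 0.155. Its mean as deposited was 0.192 ± 1.83.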

How the data were processed

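Each of 6 two-colour cDNA arrays compared RNA of 59Q (repeat length 59) and N3 transfected Neuro-2a cells, taken at 60 h. Labelling by the authors used tyramide signal amplification, and slides were read with GenePix (version not given in the sources used here) and transformed to Z scores. Every value used is the deposited Z-ratio, a score per spot with an SD of 1 on each array. It fixes the spread of every array, so it shows only position within an array. No intensities were used here, so no depth, level or fold could be given, and the number of arrays limits the precision.

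Spots were taken from 31200 probes, of which 18384 have 1 gene symbol, 514 several and 12302 none here. Symbols were updated by Entrez ID (18172 spots; 212 kept the annotation's symbol) through a RefSeq gene table of GRCm38.p6, used for names only. Odd spots were averaged with the next even spot and clones with clones of the same gene. A clone with several symbols was left out.

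The 6463 genes and 14418 clones with 4 or more values were fitted with limma 3.58.1 under R 4.3.3, by lmFit (intercept alone, or intercept and dye) and eBayes with Benjamini-Hochberg adjustment, calling an adjusted p under 0.05. For single genes an exact permutation test turned the signs of the arrays in all combinations, 2-sided, in Python 3.11.15. The 6 arrays were taken as replicates, as in the methods. The series text counts 4 biological replicates beside flip-dye pairs that the labels do not identify, so the p-values may partly measure technical spread. Scripts were tested on simulated data.

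Named members were, per family, the 2 with the smallest limma p in each reading, the 3 highest and 3 lowest means as deposited, those called, and the 4 with the most clones, together 30 of 83; in each further list the 2 genes with the smallest p. Sf3a3, Sf3b4, Snrpd2, Snrpb, Snrpf, Hnrnpa0, Lsm2, Rbmx, Lsm14a and Clk4 were named after their values were seen. The members and lists were chosen with earlier results of these data known. Alternatives covered the direction, arrays used, centring, quantile normalization, clipping at 3, the median of clones, the variance model, the minimum of arrays and a dye term; leaving out clone values beyond 5 was chosen after seeing the data.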

Additional observations from a re-analysis of the deposited data

Results flagged for a closer look

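Among the 26 named members with a value on all 4 arrays with 59Q in Cy5, 1 had an array far from the others. Snrpe read 6.05 on replicate 3, beside 1.28 to 1.95 on replicates 1, 4 and 6. The gap from 1.95 to 6.05 took up more of the range of these 4 arrays than Dixon's critical value allows. Chance alone gives such a gap in about 1 of 20 groups, and 26 were examined. Snrpe was also named in part for its high mean, which the value on replicate 3 raises, so that rate does not hold for it. Both Snrpe clones were highest on replicate 3, at 7.57 and 4.53. In the first clone the duplicate spots read 7.66 and 7.48, and in the second 7.58 and 1.48. With values clipped at 3 the mean of Snrpe in the Cy5 over Cy3 reading was 1.62, with a limma adjusted p of 0.025.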

How the results depend on the processing

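As deposited the count of called members was 0 under all 18 alternatives run for genes, the median of the members stayed within its spread over the arrays, and the dye orientation test called no member gene under any of its alternatives. Over clones that test called 0 of 128 member clones and 0 of all clones. With clipping it called 3, beside 264 higher and 2 lower of all 14418 clones. With values beyond 5 left out it called 3, beside 193 higher and 2 lower of 14362. With a value on all 6 arrays it called 2 of 98, beside 201 higher and 1 lower of 10156. In the Cy5 over Cy3 reading 0 member genes were called, and 1 was called with arrays centred on their medians, with quantile normalization, with clone values beyond 5 left out and with a value required on all 6 arrays, and 2 with values clipped at 3. The gene was Sf3a2, joined by Snrpe under clipping. Leaving out 1 array gave 0 called genes each time. The count of member clones called in that reading, 3 of 128, was 5 with clipping, beside 444 higher and 19 lower of all 14418 clones. It was 0 with the arrays with 59Q in Cy5 only, with replicates 3, 4 and 6 only and as deposited, beside 0, 4 and 0 of all clones. With 1 array left out 0 to 2 member clones were called, beside at most 202 higher and 1 lower of all clones. Turning the 2 arrays takes the member clones called from 0 to 3, and all clones called from 0 to 272 higher and 7 lower. Over all genes, the 17 higher and 1 lower calls of that reading became 53 and 1 with centring, 31 and 1 with quantile normalization, 67 and 4 with clipping, 56 and 4 without values beyond 5, 68 and 4 with all 6 arrays required and 0 without any 1 array. The dye orientation test, with 0 calls over all genes, gave up to 14, with clipping. The 1 member mean past 1.96 as deposited became 0 with quantile normalization, clipping, values beyond 5 left out, all 6 arrays required or a dye term, 2 with the sign turned, 3 with 59Q in Cy5 only and 4 with replicates 3, 4 and 6 only. With 1 array left out it was 0 to 3. Over all genes 15 means lay above and 2 below this threshold as deposited, and 33 and 4 with the sign turned. Counts over all genes under the other alternatives are not given here. Of 1042 values of named members under alternatives, 1031 kept their call or moved by less than 1 SD, 5 moved further, 6 passed the threshold that had not, and none changed sign with a call. The cause of these changes was not tested. No paired analysis was possible because the labels do not say which arrays form flip-dye pairs, and replicate numbers run over 1 set of arrays. Only 2 arrays carry 59Q in Cy3, so each orientation effect leans on them, and no alternative settles the direction of the deposited values.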

Other observations

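A clone annotated with both Prpf31 and 1810009A15Rik was left out of the members. It read 0.412, -0.385, -0.647, 0.607, 0.864 and -0.278 on replicates 1 to 6, with a mean of 0.0955 ± 0.612 (SD, n = 6). On replicate 1, 5 of 83 members lay beyond 1.96 in size (6.02%, beside 3.49% of all genes), and on the remaining arrays 1.2% to 3.61% of members did, beside 2.09% to 3.14% of all genes. The members' share was below that of all genes on replicates 5 and 6. The correlation of duplicate spots over member clones ran from 0.784 to 0.95 on the arrays. Member values beyond 4 in size were carried by Rbm39 and Snrpe on replicate 3 and by Hnrnpl and Snrpa1 on replicate 4.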
